A study of Mus musculus with 15 samples.

Results

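H3K27me3, trimethylation of lysine 27 of histone H3, was mapped by ChIP-seq in 2 replicate libraries of the murine T lymphoblast cell line EL4, and its coverage was described here gene by gene. Both libraries were used, of 15 samples in the series, of which 12 had a list of called intervals. EL4 is a lymphoma line of mouse T cells, and the labels give no treatment, time or genotype that sets these cultures apart. The other lists were 2 replicates each of ChIP-seq for H3K4me3, H3K9ac, H3K27ac and H3K36me2 and of ATAC-seq, which cuts open chromatin. The methods used input chromatin as the control for the ChIP-seq lists, so the lists of different marks, and of both H3K27me3 replicates, share that control. The paper speaks of technical replicates where peaks were merged, and nothing in the labels says that the libraries came from separate cultures, so the spread between them may be technical. A gene was called covered when at least 50% of its span, from the first to the last base of its GRCm38.p6 record, lay under H3K27me3 intervals in a replicate. Of 20665 protein-coding genes on the 19 autosomes, 1269 were covered in both replicates.

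H3K27me3 is written by Polycomb repressive complex 2, whose catalytic subunit is Ezh2 or Ezh1, with Eed and Suz12 as partners. It is removed by demethylases of the Kdm6 family. The mark is best known from silent genes, such as developmental regulators and genes of other cell lineages, and it can spread over broad domains as well as sit at single promoters. H3K4me3 marks promoters, H3K27ac and H3K9ac are acetylations of active promoters and enhancers, and H3K36me2 is spread over gene bodies and the DNA between genes.

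To show the DNA in front of genes of different kinds, the 150 bases directly upstream of the transcription start in the RefSeq promoter table (GRCm38.p6) are given for 6 genes covered in both replicates. In each of the 6 that start is also the end of the gene span used for coverage. Lower case is used throughout, and capitals mark each CG dinucleotide, which reads the same on both strands. The 6 are the enzyme gene Aldh1a2 and the receptor gene Grm8, both rich in CG, the keratin genes Krt7 and Krt39, the olfactory receptor gene Olfr1424 and the myeloid gene S100a9.
Aldh1a2 (chr9:71215639-71215788, plus strand): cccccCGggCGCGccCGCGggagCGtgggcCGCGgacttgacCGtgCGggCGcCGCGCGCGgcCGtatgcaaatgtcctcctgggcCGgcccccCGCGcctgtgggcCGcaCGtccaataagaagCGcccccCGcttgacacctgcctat
Grm8 (chr6:28135147-28135296, minus strand): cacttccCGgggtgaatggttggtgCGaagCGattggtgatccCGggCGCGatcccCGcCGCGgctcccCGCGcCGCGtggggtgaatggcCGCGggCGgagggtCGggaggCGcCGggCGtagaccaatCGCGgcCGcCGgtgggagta
Krt7 (chr15:101412253-101412402, plus strand): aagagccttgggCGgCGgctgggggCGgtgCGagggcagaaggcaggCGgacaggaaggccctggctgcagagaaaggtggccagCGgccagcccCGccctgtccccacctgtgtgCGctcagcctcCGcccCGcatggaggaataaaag
Krt39 (chr11:99521339-99521488, minus strand): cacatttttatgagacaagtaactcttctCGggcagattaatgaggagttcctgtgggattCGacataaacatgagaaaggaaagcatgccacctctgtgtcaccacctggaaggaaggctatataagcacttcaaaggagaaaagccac
Olfr1424 (chr19:12059751-12059900, minus strand): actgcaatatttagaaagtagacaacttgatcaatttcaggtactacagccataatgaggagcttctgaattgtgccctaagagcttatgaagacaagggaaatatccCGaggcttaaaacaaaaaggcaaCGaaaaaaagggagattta
S100a9 (chr3:90695722-90695871, minus strand): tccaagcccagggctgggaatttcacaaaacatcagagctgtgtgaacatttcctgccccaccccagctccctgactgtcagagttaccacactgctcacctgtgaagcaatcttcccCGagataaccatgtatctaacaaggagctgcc
The stretch held 24 CG in Grm8 and 23 in Aldh1a2, against 10 in Krt7, 2 in Krt39, 2 in Olfr1424 and 1 in S100a9. Around the same start, the 300-base window was wholly under H3K27me3 in both replicates for Aldh1a2, Krt7, Krt39, Olfr1424 and S100a9. In Grm8 the window was at 0% in both replicates although the gene was covered at 62.8% in replicate 1 and 67.1% in replicate 2. The replicates did not match at every window. In Krt20 the window was at 100% in replicate 1 and 0% in replicate 2, and in Cobl at 0% and 100%, although both genes were covered.

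The 2 libraries differed in how their intervals were cut. On the autosomes, replicate 1 had 45491 intervals with a median width of 4199 bp, and replicate 2 had 37618 with a median of 5999 bp. The widest interval was 160.8 kb in replicate 1 and 186.2 kb in replicate 2. Replicate 1 covered 257.4 Mb and replicate 2 covered 295.2 Mb, of which 183.9 Mb were covered in both. That was 71.4% of the base pairs of replicate 1 and 62.3% of those of replicate 2. Gene spans made up 41.1% of the extent of the autosomes seen in the lists, and they held 39.4% of the covered base pairs of replicate 1 and 39.6% of those of replicate 2. Coverage was therefore split between genes and the DNA between them about as the genome itself was.

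Per gene, 1555 genes (7.52%) were covered in replicate 1 and 1864 (9.02%) in replicate 2. The 1269 covered in both (6.14% of all genes) were 81.6% of the genes of replicate 1 and 68.1% of those of replicate 2. At the other end, 15825 genes (76.6%) had not 1 base pair under H3K27me3 in either replicate, and 310 genes were covered from end to end in both. Requiring 75% of the span left 700 genes, and requiring 90% left 418. Among the 1269, the median coverage was 81.3% in replicate 1 and 88.0% in replicate 2, and the median difference between replicates was 5.13 percentage points. Replicate 2 was higher in 651 of them, replicate 1 in 278, and 340 were exactly equal, most of them at the upper end of the scale, since 310 genes were at 100% in both. No test was run on these counts, because both libraries were used to choose the genes.

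**Figure D1:**
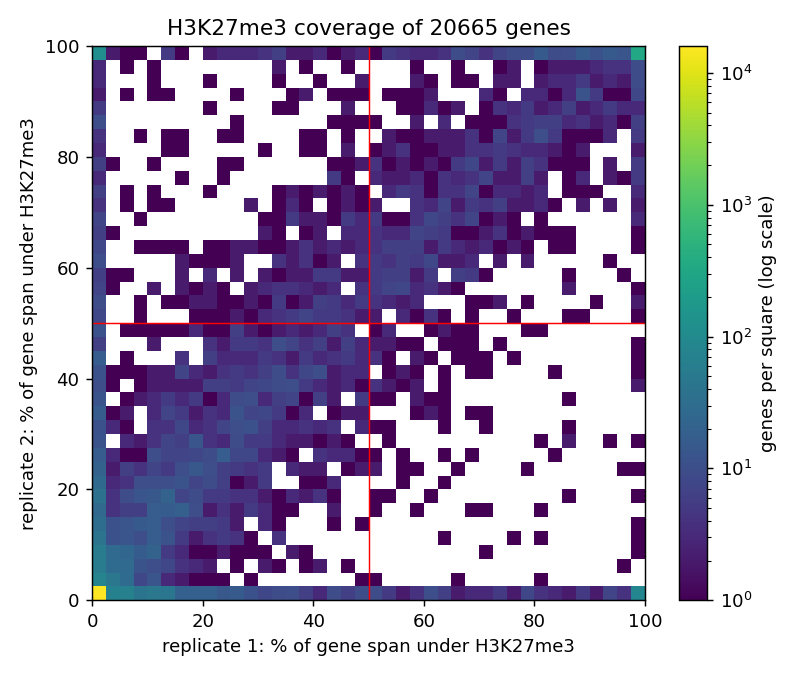
Percent of each gene span under H3K27me3 in replicate 1 (x axis) and replicate 2 (y axis) for 20665 autosomal genes, with colour giving the number of genes per square on a log scale and red lines at 50%. Most genes sit in the lower left corner at 0% in both, the upper right field holds the 1269 covered in both, and genes at 100% in one replicate and 0% in the other line the edges.

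Genes covered in one replicate only numbered 881, 286 (1.38%) in replicate 1 and 595 (2.88%) in replicate 2. They were short, with a median length of 5.10 kb for replicate 1 and 9.02 kb for replicate 2, against 13.4 kb for genes covered in both and 17.5 kb for all genes. Of the 286, 168 were at 0% in replicate 2 and 85 lay between 25 and 50% there. Of the 595, 227 were at 0% in replicate 1 and 283 lay between 25 and 50%.

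Among genes of at least 50 kb, the largest gaps were on the side of replicate 2. Pax8, a transcription factor gene of thyroid and kidney, was at 35.96% in replicate 1 and 88.0% in replicate 2. Scrn1 was at 48.0% and 93.7%, and St8sia2, which makes polysialic acid on neural cells, at 11.8% and 57.2%. On the side of replicate 1, 6430548M08Rik was at 64.6% and 26.7%, and Tbc1d9 at 54.5% and 37.0%, so long genes of that kind were separated by less. Just inside the threshold lay Sel1l3 (50.01% in its lower replicate), Impg1 (50.02%) and Sncaip (50.08%), and just outside lay Pkp4 (49.9%), Ccdc180 (49.6%) and Nox3 (49.5%).

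The share of covered genes did not follow gene length in 1 direction. Of genes under 5 kb, 9.26% were covered in both replicates, and the share fell to 4.57% at 5 to 20 kb and 3.79% at 20 to 50 kb. It was then 5.72% at 50 to 100 kb, 9.06% at 100 to 200 kb and 11.8% at 200 to 500 kb, and 7.41% (16 of 216 genes) over 500 kb. The shortest class held most of the olfactory receptor genes, and without them its share was 5.34%. Of the 423 covered genes under 5 kb, 254 were at 100% in both replicates, and of the covered genes of at least 50 kb, none was. The share of genes without any H3K27me3 interval in either replicate went from 81.0% under 5 kb and 82.9% at 5 to 20 kb down to 34.7% over 500 kb. The order of the length classes depended on the threshold: at 90% of the span, 1.29% of genes of 5 to 20 kb and 0.274% of genes of 200 to 500 kb remained.

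**Figure D2:**
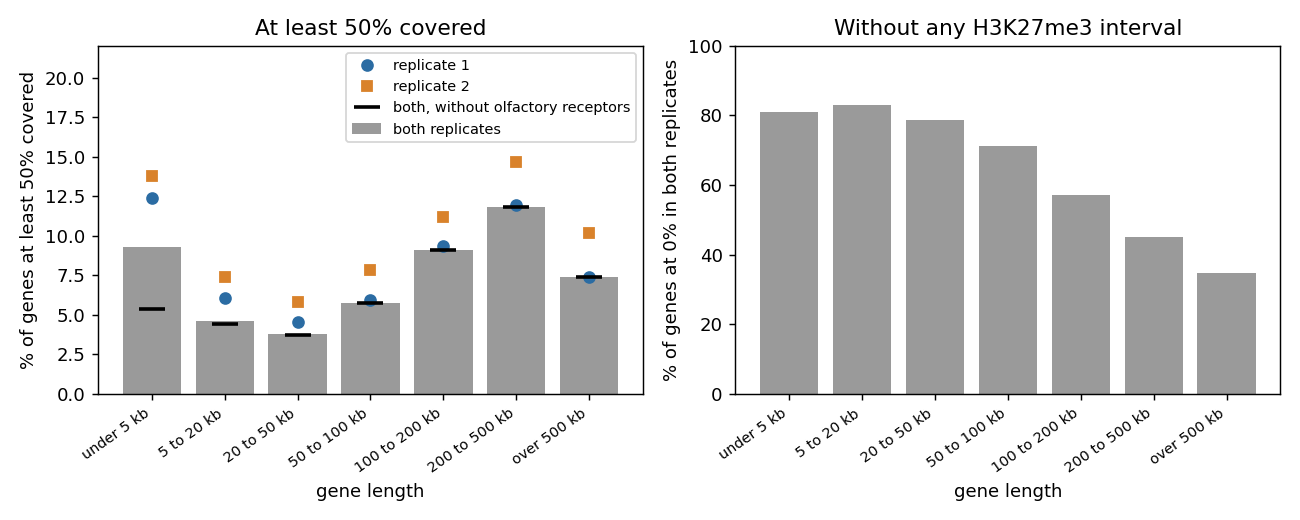
Left, percent of genes at least 50% covered by gene length (grey bars, both replicates; circles, replicate 1; squares, replicate 2; black dashes, both replicates without olfactory receptors). Right, percent of genes at 0% in both replicates; coverage in both replicates was 9.26% under 5 kb, 3.79% at 20 to 50 kb and 11.8% at 200 to 500 kb, and the share at 0% was lowest, at 34.7%, over 500 kb.

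Covered genes of at least 100 kb numbered 226, and replicate 2 was the higher one in 182 of them. The longest was Opcml (chr9:27790716-28925410, 1135 kb), which encodes a cell adhesion molecule of neurons, with 52.2% of its span covered in replicate 1 and 62.5% in replicate 2. This coverage was broken into 112 intervals in replicate 1 and 85 in replicate 2. Pard3b (chr1:61638667-62642284), a gene related to the cell polarity factor Pard3, was at 84.0% and 84.7%, the highest of the 10 longest. Spag16, a gene of the sperm flagellum, was at 70.9% and 75.8%.

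Grm8, a metabotropic glutamate receptor gene, was at 62.8% and 67.1%. Npas3, a transcription factor gene of the brain, was at 58.3% and 68.6%, and Alk, a receptor tyrosine kinase gene, at 53.9% and 63.0%. Lama2, the laminin chain of muscle basement membrane, was at 59.3% and 66.7%. Cacna1c, a calcium channel gene, was at 51.6% and 58.5%, and Ryr3, which encodes a calcium release channel, at 54.8% and 54.4%. Fat3, an atypical cadherin gene, was at 50.4% and 64.4%. In 9 of these 10 genes replicate 2 was higher, with Ryr3 as the exception.

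The longest gene covered at 90% or more in both replicates was Adamts12, a metalloprotease gene of 284.5 kb, at 92.1% and 94.2%. Cobl, an actin nucleator gene, was at 92.1% and 93.6% over 228.3 kb. Rspo2, which enhances Wnt signalling, was at 92.3% and 91.4%. The endocytic adaptor gene Dab2 was at 97.0% and 97.7% over 140.9 kb. Aldh1a2, which makes retinoic acid, was at 92.8% and 98.0%, and Slc1a3, a glutamate transporter gene of glia, at 97.7% and 96.3%. Here the replicates were within 6 percentage points of each other, but choosing genes at 90% or more in both leaves little room for a gap. On chromosome 15 lay 6 of the 10 longest genes of this kind, among them Adamts12, Rspo2, Dab2 and Slc1a3.

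Some very long genes had no called interval. Ptprd (2271 kb), a receptor phosphatase gene, was at 0% in both replicates, and so were Nrxn3 (1612 kb), Dpp10 (1514 kb), Gpc5 (1433 kb) and Naaladl2 (1346 kb). These are the 5 longest genes without an H3K27me3 interval, and Ptprd, Nrxn3 and Dpp10 are, like Opcml, genes known from neurons.

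By chromosome, the share of genes covered in both replicates ran from 14.5% on chromosome 19 to 0.705% (6 of 851 genes) on chromosome 14. Chromosome 19 was followed by chromosome 15 at 12.6%, chromosome 11 at 11.1% and chromosome 9 at 10.7%. These 4 chromosomes held 506 of the covered genes, which is 39.9%, and 20.8% of all genes. At the low end, chromosome 16 was at 1.92%, chromosome 8 at 2.49% and chromosome 7 at 2.56%. Single replicates gave 2.80 and 4.71% on chromosome 16, 4.70 and 4.89% on chromosome 8 and 3.65 and 4.48% on chromosome 7. In replicate 1 alone the range was 1.65 to 16.0% and in replicate 2 alone 3.29 to 17.5%, with chromosomes 14 and 19 at the ends in both. Replicate 2 was above replicate 1 on 19 of 19 chromosomes.

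By base pairs, chromosomes 15, 19, 11 and 9 were again the 4 highest and chromosome 14 the lowest, whereas chromosome 8, at 5.98%, lay above chromosomes 4, 5, 7 and 17. H3K27me3 in both replicates covered 18.1% of chromosome 15 and 17.3% of chromosome 19, against 2.41% of chromosome 14 and 2.82% of chromosome 16. The overlap of the replicates, as base pairs covered in both over base pairs covered in either, was 0.645 on chromosome 15 and 0.311 on chromosome 14. Leaving out the olfactory receptor genes brought chromosome 19 to 9.97% of genes, chromosome 11 to 7.995% and chromosome 9 to 7.47%. Chromosome 15 was then the highest at 12.1%, and chromosome 14 stayed the lowest at 0.616%.

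**Figure D3:**
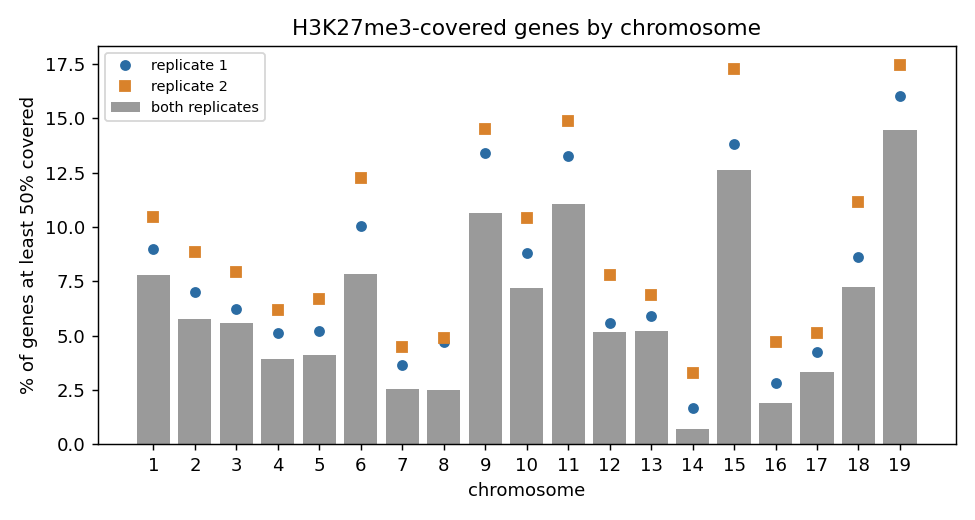
Percent of the protein-coding genes of each autosome at least 50% covered by H3K27me3 in both replicates (grey bars), in replicate 1 (circles) and in replicate 2 (squares). The grey bars of chromosomes 19, 15, 11 and 9 lie above 10%, and chromosome 14 is the lowest at 0.705%.

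Covered genes lay side by side. Counted in gene order, the 1269 formed 762 runs of consecutive covered genes, of which 510 were single genes, so 759 genes (59.8%) had a covered neighbour. Runs of at least 5 genes numbered 29 and held 203 genes. The longest, 17 genes over 396.3 kb (chr19:12035808-12432110), ran from Olfr1423 to Pfpl and was made of 16 olfactory receptor genes and Pfpl. Over this whole stretch, DNA between genes included, 78.5% was covered in replicate 1 and 84.0% in replicate 2.

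The run of 14 genes at chr11:99385254-99603308 went from Krt10 to Gm11938 and held keratin and keratin-associated protein genes, with 79.6% and 78.4% of the stretch covered. A run of 11 olfactory receptor genes on chromosome 9, from Olfr877 to Olfr890, was at 70.5% and 71.5%. Another run of 11, on chromosome 19, was the Ms4a family from Ms4a15 to Ms4a7, which includes Ms4a1, the gene of the B cell antigen CD20, at 75.9% and 81.8%. The 2 runs of 9 genes each on chromosome 15, from Krt86 to Krt6a and from Krt71 to Krt79, had 92.1% and 92.8%, and 97.7% and 93.8%, of their stretch covered. Runs of 7 included the interleukin-1 family genes next to Hnmt and Tbpl2 on chromosome 2 and the Aadac family on chromosome 3.

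Gene lists differed widely in how many members were covered in both replicates, to be read against 6.14% of all genes. Of 29 lists, 12 lay above that share and 17 below it, 8 of them with no covered gene. Members of a family lie next to each other and share intervals, so they are not independent, and no test was run on the lists.

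Keratins, the intermediate filament proteins of epithelia, hair and nails, had the highest share, 28 of 49 genes (57.1%), with a median coverage of 96.1% in replicate 1 and 89.2% in replicate 2, against 0% for all genes. On chromosome 15 the count was 19 of 24 and on chromosome 11 it was 9 of 25. Krt80, Krt7, Krt75, Krt1 and Krt4, among others, were at 100% in both. Krt18, a keratin of simple epithelia, was at 79.0% in both. The replicates parted in 11 keratin genes, such as Krt15 and Krt19, which were at 100% in replicate 1 and 0% in replicate 2, and Krt17 and Krt35, at 0% and 100%.

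Olfactory receptors, the large family of odorant receptors of the nose, were covered in 251 of 1104 genes (22.7%), and made up 19.8% of all covered genes and 5.34% of all genes. The clusters differed by chromosome. On chromosomes 9, 11 and 19 together, 142 of 276 were covered (51.4%), and on chromosomes 2 and 7 together, where 526 lie, 35 were (6.65%). On chromosome 11 alone it was 56 of 83 genes and on chromosome 14 it was 1 of 39. Their median length was 0.950 kb, so 1 interval could cover a whole gene. They are close copies of each other and the authors kept unique alignments only, so values of single members are uncertain. Vomeronasal receptors, the pheromone receptors of similar length, were covered in 17 of 352 genes (4.83%).

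Serpins, protease inhibitors, were covered in 12 of 62 genes, 11 of them in the Serpina group on chromosome 12. Serpina3c and Serpina3f were at 100% in both replicates, and Serpina3n at 64.4% and 61.8%. Collagens were covered in 8 of 42 genes. Among them were Col3a1, a fibrillar collagen of skin and vessels, at 64.4% and 72.2%, Col12a1 at 84.6% and 86.1%, Col25a1 at 69.6% and 76.4%, and the neighbours Col6a4, Col6a5 and Col6a6 on chromosome 9, between 62.0 and 81.5%.

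Among chemokines and interleukins, the signals between immune cells, 13 of 70 genes were covered. Ccl2, Ccl8, Ccl12 and Ccl6, chemokines that draw monocytes and other leukocytes, were at 100% in both replicates, all on chromosome 11. Il1b and Cxcl9 were also at 100% in both, and Il12b, a subunit of interleukin-12, was at 55.7% and 67.1%. Il6 was at 2.55% and 79.6%, so it was covered in replicate 2 only.

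The lineage lists also served as a check of the cells. None of 16 T lineage genes was covered, and 15 of them were at 0% in both replicates, among them Cd3e, Cd3d, Lck, Zap70, Gata3 and Bcl11b. The exception was Tcf7, a T cell transcription factor gene, at 14.1% in replicate 1 and 0% in replicate 2. Of all genes, 76.6% were at 0% in both. H3K4me3 and H3K27ac each touched 16 of these 16 T lineage genes in both replicates, against 50.7% and 50.4% of all genes.

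Of 12 B lineage genes, 2 were covered. Ebf1, a founding transcription factor of B cells, was at 63.2% and 63.5% over 390.0 kb, and Ms4a1 was at 81.8% and 100%. Pax5, which maintains B cell identity, lay below the threshold at 32.5% and 45.9%, as did Blnk, an adaptor of the B cell receptor, at 27.3% and 45.1%. In contrast, Cd22, Cd79a and Cd79b were at 0% in both. H3K4me3 touched 1 of the 12 in both replicates, against 50.7% of all genes.

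Of 16 myeloid genes, 2 were covered in both replicates. S100a8 and S100a9, the calprotectin subunits of neutrophils, were at 100% in both. Cd14, the endotoxin co-receptor of monocytes, was at 100% and 0%, and Csf1r, the macrophage growth factor receptor, at 51.7% and 31.4%. Mrc1 and Adgre1, both of macrophages, were at 40.9% and 41.1% and at 40.5% in both. Spi1, Mpo, Elane and Lyz2 were at 0% in both replicates, as were 9 of the 16 in all, against 76.6% of all genes. H3K4me3 touched 3 of the 16 in both replicates and H3K27ac 2, against 50.7% and 50.4% of all genes.

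Hox genes, which pattern the body axis, were covered in 3 of 39 cases, all in the Hoxc cluster on chromosome 15. Hoxc13 and Hoxc11 were at 100% in both replicates and Hoxc10 at 92.1% in both, while Hoxc12 was at 32.2% and 100%. Hoxc10 also carried H3K4me3, over 7.88% of its span in replicate 1 and 8.15% in replicate 2. In the Hoxd cluster, Hoxd12, Hoxd11 and Hoxd10 were at 0% in replicate 1 and at 96.1%, 100% and 84.2% in replicate 2. None of the Hoxa and Hoxb genes was covered in both replicates, and 30 of the 39 Hox genes were at 0% in both. Of all genes, 6.14% were covered in both and 76.6% were at 0% in both. The Hox genes as a list, with 7.69% covered, lay near these shares.

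Of 62 developmental transcription factor genes, 3 were covered in both replicates, which is 4.84%, and 38 were at 0% in both. Of all genes, 6.14% were covered in both and 76.6% were at 0% in both. Pdx1, of the pancreas, was at 73.0% and 93.9%, and Sox9, of cartilage and other tissues, at 71.3% and 53.3%. Another 6 were covered in replicate 2 only, Pax8, Wt1, Lhx1, Nkx2-1, Sox10 and Gata6, and Gsx2 in replicate 1 only. Lhx1 and Nkx2-1 were at 0% in replicate 1 and at 100% and 88.4% in replicate 2.

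No H3K27me3 interval was called in the lists of genes that every cell uses. Of 80 genes for cytosolic ribosomal proteins, 38 for proteasome subunits, 44 for NADH dehydrogenase and 9 for minichromosome maintenance, none had 1 base pair under H3K27me3 in either replicate. The same held for 11 genes of Polycomb repressive complex 2 on the autosomes. For comparison, 76.6% of all genes were at 0% in both.

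**Figure D4:**
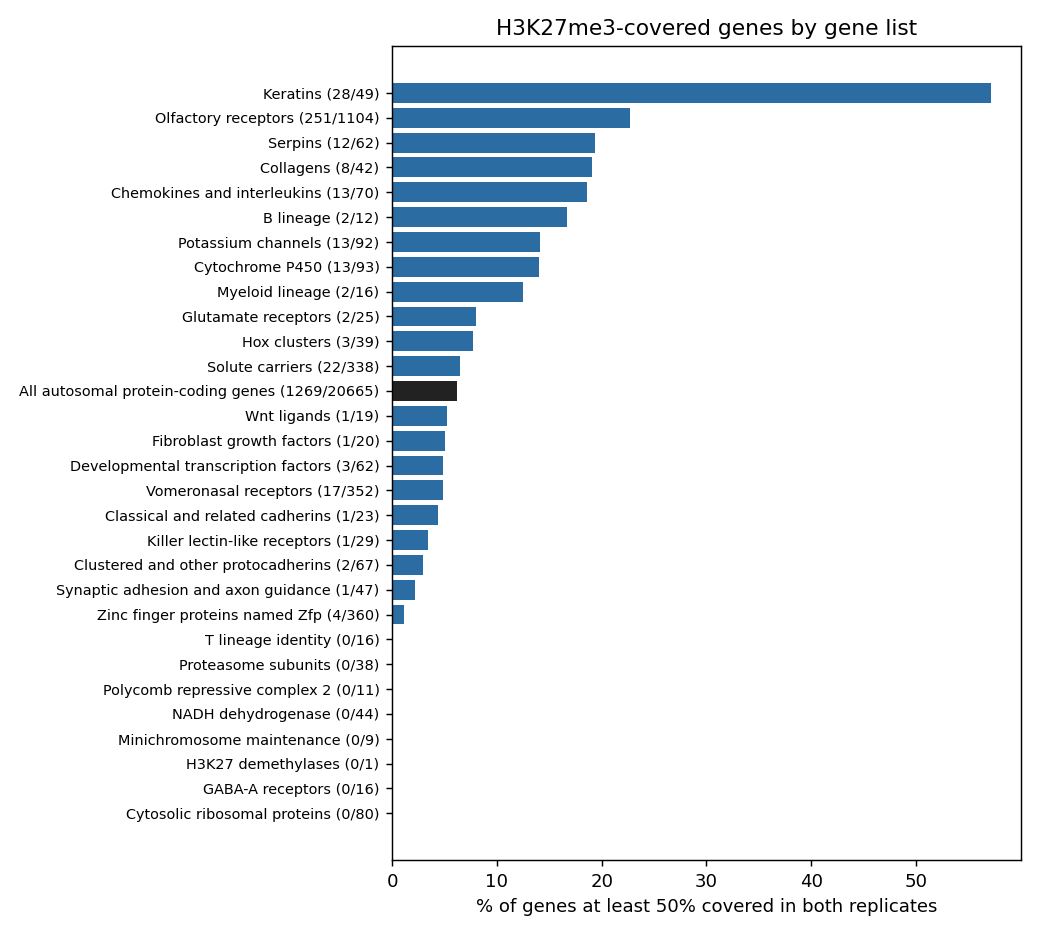
Percent of the genes of each list that were at least 50% covered by H3K27me3 in both replicates, with the number covered and the number of genes in brackets; the black bar is all autosomal protein-coding genes. Keratins stand at 57.1% and olfactory receptors at 22.7%, all genes at 6.14%, and 8 lists at 0.

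The other marks were largely absent from the covered genes. Over all genes, the mean share of the span was 8.50% and 9.77% for H3K27me3, 29.4% and 28.9% for H3K36me2, 6.10% and 6.02% for H3K4me3, 5.77% and 5.84% for H3K27ac, 5.40% and 5.39% for H3K9ac and 1.64% and 1.86% for ATAC-seq, in replicates 1 and 2. The mean of H3K27me3 minus that of H3K36me2 was -20.1 percentage points, and H3K27me3 was between 3.08 and 7.39 points above the other sets, with no overlap of the replicate values. According to the methods, H3K27me3 and H3K36me2 were called as broad peaks with Epic and the other sets with macs2. The shares of those other sets are therefore not like measures to that of H3K27me3. An exact two-sided permutation test of 2 libraries against 2 gave p = 0.333 for each of the 5 comparisons (adjusted 0.333), which is the smallest this design allows, so none could pass 0.05.

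In the 1269 covered genes, the mean share under H3K36me2 was 0.434% in replicate 1 and 0.398% in replicate 2, and that under H3K4me3 was 0.198% and 0.187%. H3K36me2 touched 38 of them in both replicates (2.99%, against 44.7% of all genes), H3K4me3 touched 74 (5.83%, against 50.7%), H3K27ac 55 (4.33%, against 50.4%), H3K9ac 50 (3.94%, against 49.3%) and ATAC-seq 56 (4.41%, against 45.3%). Among genes covered in one replicate only, H3K4me3 touched 5.94% of those of replicate 1 and 8.57% of those of replicate 2, and H3K36me2 touched 1.40% and 1.85%. In genes covered in neither, H3K4me3 touched 55.9% and H3K36me2 49.6%.

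The 74 covered genes that H3K4me3 also touched in both replicates were long, with a median of 113.8 kb against 11.6 kb for the other covered genes, and 39 of them were at least 100 kb. A touch needs only 1 base pair anywhere in the span, so a long gene has more room for it. Their length was not compared with that of all genes touched by H3K4me3. Named by length, the 74 began with Npas3, Cacna1c, Ryr3, Ank2, Rabgap1l, Kirrel3, Pard3 and Ptprk. H3K4me3 took up little of these long genes, such as 0.247% of Cacna1c and 1.09% of Ptprk, a receptor phosphatase gene, in replicate 1. The part was larger in some shorter genes of the 74. In Hes1 (2.44 kb), H3K4me3 took up 38.65% and 39.51% of the span, and H3K27me3 covered 100% in both replicates. In Smad7 (28.57 kb), H3K4me3 took up 15.4% and 16.0%, with H3K27me3 at 61.0% and 63.8%. In Ptprk, H3K27me3 covered 69.4% and 68.4% of the span and H3K36me2 12.0% and 13.97%. Rims2, a synaptic scaffold gene at 87.0% and 90.6% H3K27me3, had H3K4me3 over 0.138% of its span in both replicates. Kcnip1, a potassium channel partner, had 50.2% and 53.8% under H3K27me3 and 23.8% and 25.5% under H3K36me2.

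Along genes of at least 20 kb whose strand was known, 417 covered genes, the mark was highest in the middle. Mean coverage was 68.1% in the first of 10 equal parts of the span, 78.0% in the fifth part and 64.5% in the last, as the mean of the replicates. Since genes were chosen for coverage of their span, a drop at the gene ends is partly set by that choice. Outside the span, 55.1% of the 2 kb directly before the start was covered, 55.3% at 20 kb before it and 42.6% at 20 kb after the end. Directly before the start the length groups parted. In the 161 genes of at least 100 kb, coverage was 61.3% in the 2 kb bin further upstream and 47.4% directly before the start. In the 256 genes of 20 to 100 kb it was 56.9% and 60.0%. In the 44 of the 417 genes that also carried H3K4me3 in both replicates, coverage was 49.1% directly before the start, 76.8% in the fifth part and 32.0% at 20 kb after the end.

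**Figure D5:**
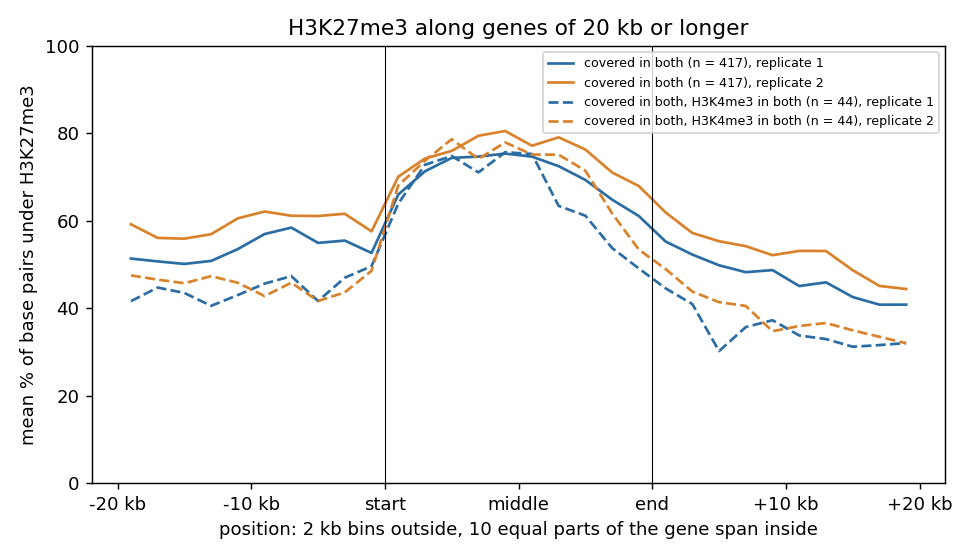
Mean percent of base pairs under H3K27me3 along covered genes of at least 20 kb, in 10 equal parts of the gene span and in 2 kb bins up to 20 kb outside it, for 417 genes (solid) and the 44 of them with H3K4me3 in both replicates (dashed), in replicate 1 (blue) and replicate 2 (orange). Coverage was highest in the middle of the span, at 78.0% as the mean of replicates, and stayed above 40% to 20 kb outside in the 417 genes.

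Promoters of covered genes were poor in CG. The promoter table held a window, from 250 bases before to 50 after the start, for 78.6% of the covered genes, under the 80% set as the minimum, so a comparison over all autosomes is void. On the 14 autosomes where at least 80% of the genes had a window, a choice made after seeing the data, 770 of 924 covered genes (83.3%) had one. Their median was 1.00 CG per 100 bases, with quartiles of 0.333 and 3.33, against 5.00 in genes covered in neither replicate and 4.50 in all genes. Any CG at all was present in 89.1% of these windows and in 94.6% of all windows on those autosomes. At least 5 CG per 100 bases were found in 19.7% of covered genes and in 50.9% of genes covered in neither. The median G and C content was 47.5% against 57.3%. Chromosome 15, with its keratins, and chromosome 11 were not among these autosomes.

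On the same 14 autosomes, the 821 olfactory receptors with a window, covered or not, had a median of 0.333 CG per 100 bases. Covered genes there that were neither olfactory receptors nor keratins had 1.67. The value differed by gene length. In covered genes under 5 kb the median was 0.333, and in those of at least 100 kb it was 5.33, against 6.67 in all genes of that length. No value for all genes under 5 kb stands beside the 0.333, so it cannot be called low for that length. The window was wholly inside H3K27me3 in both replicates in 59.7% of covered genes and in 0.994% of genes covered in neither, which is not independent of the choice of genes, since the window holds 50 bases of the gene. It was wholly inside in 75.7% of covered genes under 5 kb and in 32.8% of those of at least 100 kb, and at 0% in both replicates in 29.8% of the latter. Grm8, whose upstream bases are printed above, was one of the long genes covered over the body with a bare window.

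On all autosomes, and only among the 997 covered genes with a promoter window, 5 genes with the most CG were named. They were Dmxl2, with 21 CG per 100 bases, Tanc2 with 19, Bend6 with 18.7, and Neo1 and Scmh1 with 18 each. Tanc2, a scaffold gene of synapses, was at 82.6% and 86.4% H3K27me3, and Scmh1, itself a Polycomb group gene, at 74.1% and 71.7%. Neo1, the neogenin receptor gene, was at 56.1% and 63.1%. None of the 5 had 1 base pair of H3K4me3, H3K27ac or H3K9ac in either replicate.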

How the data were processed

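ChIP-seq and ATAC-seq libraries of EL4 cells were analysed as lists of intervals. According to the methods, the authors aligned reads with STAR 2.5 to the mouse genome, kept unique alignments, treated duplicates with Picard, and called broad marks, such as H3K27me3, with Epic and the others with macs2, with the input as ChIP-seq control. The deposited lists hold, per replicate, the chromosome, start and end of each interval, with positions in base pairs and no score or count, so the depth is unknown and no counting interval was computed. The methods state that reads on chromosomes X and Y were discarded, yet the lists hold intervals on chromosome X.

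Gene spans were those of protein-coding genes in RefSeq (GRCm38.p6), whereas the study names other gene models. The percent of each span under intervals was computed with Python 3.11.15 and numpy 2.4.6, tested on simulated data and checked against bedtools 2.31.1, with 0 differing gene values. A gene counted as covered at 50% or more. Touched means at least 1 base pair. Mean coverage of libraries was compared by exact permutation, 2 against 2, with Benjamini-Hochberg adjustment over the 5 comparisons. No other test was run. Genes were named by rule: the 10 longest covered genes, the 10 longest covered at 90% or more in both, among genes of at least 50 kb the 5 largest gaps between replicates on each side and the 3 on either side of the threshold, the covered members of each list (the 4 longest where there were over 10), the members of the 3 longest runs, the 5 with most promoter CG and the 5 longest at 0%. Some genes that these rules select are not reported here. Other list members were named after their values were seen. The H3K27me3 libraries and the gene lists were chosen with earlier results of these data known. Thresholds, flanks, joining of intervals, short intervals, single replicates and gene subsets were varied.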

Additional observations from a re-analysis of the deposited data

Results flagged for a closer look

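Chromosome X held H3K27me3 intervals in both libraries, 524 in replicate 1 and 396 in replicate 2, although the methods state that reads of the sex chromosomes were discarded, and the comparisons above did not use them. They covered 2.01 Mb and 2.22 Mb. Of 966 protein-coding genes there, 6 (0.621%) were covered in both replicates, Cldn2, Col4a6, Gucy2f, Kcne1l, Mid1 and Tceal7. No control sample with a list was analysed, so these values stand against no background.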

How the results depend on the processing

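Thresholds set the counts most. Genes covered in both replicates numbered 2062 at 25% of the span, 700 at 75%, 418 at 90% and 2365 when base pairs of either replicate counted, and those covered in one only numbered 557 at 90% and 532 among genes of at least 5 kb. Other alternatives kept both counts within 1.5 times. Joining intervals kept 1269 of 1269 covered genes, which was fixed in advance, since joining can only add covered base pairs. Flanks of 3 kb kept 1139. Leaving out intervals under 2000 bp, which can only remove covered base pairs, kept 1205. Single replicates gave 1555 to 1864 covered genes and 257.4 to 295.2 Mb, and either replicate 368.7 Mb. The count for one replicate only has no single-replicate value. On chromosome 19, single replicates gave 16.0 to 17.5% of genes, the share of base pairs 17.3%, and leaving out olfactory receptors 9.97%. On chromosome 14 single replicates gave 1.65 to 3.29%, 2.33 and 4.67 times the value for both, and base pairs 2.41%. Genes of 5 to 20 kb were covered in 7.53% of cases at a 25% threshold, 2.55% at 75% and 1.29% at 90%, and 6.06 to 7.41% in single replicates. Genes of 200 to 500 kb were covered in 22.5%, 3.02% and 0.274%, and 11.9 to 14.7%. The median CG per 100 bases was 0.667 at 75%, 3.00 in genes of 20 to 200 kb, 1.67 without olfactory receptors, and 1.00 to 1.33 in single replicates. Where the threshold, the subset or the measure was changed, the alternative's own construction set the value. Moves in single replicates came from genes and base pairs on which the 2 libraries disagreed. Their direction was fixed for counts, shares of genes and base pairs. What both replicates cover is part of each, so these values could only stay or rise. Olfactory receptors and the 14 autosomes were chosen after seeing the data.

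Differences between H3K27me3 and the other sets kept their direction in 20 of 20 alternatives, but most of these could not have changed it. The sign flips repeat the main difference. Single replicates could not reverse it either, since the replicate values had no overlap. Only the differences from base pairs pooled over all genes were free to change direction, and they kept it for each set. With the replicate number as a block (exact sign flips within pairs), the differences were -20.1 for H3K36me2, 3.08 for H3K4me3, 3.33 for H3K27ac, 3.74 for H3K9ac and 7.39 for ATAC-seq, each with p = 0.5, the smallest this test allows. The number is shared only by label, and no other result comes from a test. List counts stayed within 1.5 times in 60 of 87 alternatives. The 60 include every alternative of the 8 lists with no covered gene, which stayed at 0, so they say little about the lists with covered genes. The longest run was 11 to 22 genes. Depth is unknown, so an uncovered gene is one without a called interval, not one shown to lack the mark.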

Other observations

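Detoxification, transport and channel genes were also among the covered genes. Cytochrome P450 genes were covered in 13 of 93 cases, with Cyp2c55 at 86.1% and 75.0% (replicates 1 and 2), Cyp2c70 at 98.7% and 83.4% and Cyp2c65 at 58.7% and 72.7%, all on chromosome 19, and Cyp19a1, the aromatase gene, at 56.7% and 56.5%. Potassium channel genes were covered in 13 of 92 cases, led in length by Kcnb2 (58.7% and 63.2%), Kcnab1 (62.8% and 70.9%) and Kcnq3 (59.1% and 65.3%). Solute carriers were covered in 22 of 338 cases (6.51%), close to the 6.14% of all genes, among them Slc4a10 at 77.9% and 76.8% and Slco5a1 at 87.5% and 94.5%.

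Zinc finger genes named Zfp were covered in 4 of 360 cases (1.11%), or in 9 without replicate 2 and 6 without replicate 1, and Zfp108 and Zfp109, a few kb apart on chromosome 7, were at 100% in both replicates and at 54.3% and 80.4%. Of 29 killer lectin-like receptor genes, 1 was covered, Klrg1, at 82.0% and 88.6%, and 2 without replicate 2. Wnt3a (56.1% and 79.9%) was the covered gene of 19 Wnt ligands, and Fgf23 (64.9% and 68.1%) that of 20 fibroblast growth factors, whereas either replicate alone gave 2 Wnt ligands and 3 fibroblast growth factors. Glutamate receptors were covered in 2 of 25 cases, among them Grm8 (62.8% and 67.1%), whereas 0 of 16 GABA-A receptor genes were covered, of which 5 were at 0% in both replicates. Among 23 cadherins Cdh10 was covered, at 63.4% and 68.1%, and 2 were without replicate 1.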
